A study of Mus musculus with 12 samples.

Results

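The 4 genes Pcp2, Gng13, Rgs8 and Ppp1r17 are described here across the cerebellum of 12 mice. They were chosen by name, as Purkinje cell-enriched regulators of G protein signaling and a substrate of the cGMP-dependent protein kinase. The choice was made with earlier results of these data known, so their ranks, shares and unadjusted p values below describe these genes and are not evidence of a direction. They are 4 of the 56941 genes in the count tables. All 4 were among the 20341 genes with enough counts to test. The mice were SCA1 mice, heterozygous for a knock-in allele with an expanded polyglutamine repeat (Atxn1154Q/2Q, with the repeat lengths following the gene name), and wild-type (WT) C57BL/6J littermates, and bulk cerebellar RNA was sequenced at 16 weeks of age. Each genotype was either sedentary or given a running wheel for 12 weeks from 4 weeks of age, which gave 4 groups of 3 mice, called SCA1 sedentary, SCA1 exercise, WT sedentary and WT exercise. Exercise mice were housed alone and sedentary mice in groups, so housing and running cannot be told apart. The wheels were taken away before behavioral testing, which preceded tissue collection. The expanded allele sits at the gene's own locus, so every cell that uses Atxn1 carries it, and males and females were both used. The brain was bisected and one side frozen, and 2 samples of lower RNA integrity were fragmented and amplified differently, which samples being not given in the sources used here.

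Purkinje cells are the sole output neurons of the cerebellar cortex and degenerate in spinocerebellar ataxia 1. Many of their inputs act through receptors coupled to heterotrimeric G proteins, in which a ligand-bound receptor loads GTP onto an α subunit and frees the βγ dimer until GTP is hydrolyzed. Gng13 encodes a γ subunit, one of the partners that make up βγ dimers. Pcp2 (also L7) encodes a GoLoco protein that binds α subunits of the Gi and Go class, and its promoter is widely used to drive transgenes in Purkinje cells. Rgs8 encodes a regulator of G protein signaling that speeds GTP hydrolysis by α subunits of the same class. Ppp1r17 encodes G-substrate, which is phosphorylated by the cGMP-dependent protein kinase and then inhibits protein phosphatases 1 and 2A. The 4 genes therefore stand at different steps: a subunit, a binder of the α subunit, an accelerator of its switching off, and an inhibitor of phosphatases downstream of cGMP.

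In GENCODE M39 on GRCm39, Pcp2 (ENSMUSG00000004630) lies on chromosome 8 from 3673371 to 3675545 on the minus strand, Gng13 (ENSMUSG00000025739) on chromosome 17 from 25936145 to 25938380 on the plus strand, Rgs8 (ENSMUSG00000042671) on chromosome 1 from 153528714 to 153576069 on the plus strand and Ppp1r17 (ENSMUSG00000002930) on chromosome 6 from 55989619 to 56009674 on the plus strand. Pcp2, Gng13 and Rgs8 share exonic bases with a gene on the opposite strand. Pcp2 shares 941 exonic bases with Pet100, Gng13 shares 448 with Chtf18 and Rgs8 shares 70 with the lncRNA Gm29529, while Ppp1r17 overlaps no annotated gene. Counting by strand therefore bears on Pcp2 and Gng13. Counts that ignored strand kept 29.99% to 37.4% of the reverse-strand counts of Pcp2 and 15.2% to 21.3% of those of Gng13, against 94.3% to 95.6% for Rgs8 and 100% to 100.2% for Ppp1r17, so the reverse-strand counts are used throughout.

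Because the 3 genes with an entry in the RefSeq promoter table (GRCm38.p6) had lower levels in sedentary SCA1 mice, their upstream sequence is shown for its motif matches. Each line gives the 250 bases before the most upstream start in that table, 5′ to 3′ on the gene's strand, and Ppp1r17 is named only. Capitals mark matches, on either strand, to AGGTCA (the core of the DNA site of ROR nuclear receptors such as RORα, which Purkinje cells need), TGACG (the core of the cyclic AMP response element), TATAAA, or TGAATGAA and TGAATGGA (octamers bound by Capicua, a repressor that partners with ATXN1).
Pcp2, chr8:3625548-3625797, minus strand: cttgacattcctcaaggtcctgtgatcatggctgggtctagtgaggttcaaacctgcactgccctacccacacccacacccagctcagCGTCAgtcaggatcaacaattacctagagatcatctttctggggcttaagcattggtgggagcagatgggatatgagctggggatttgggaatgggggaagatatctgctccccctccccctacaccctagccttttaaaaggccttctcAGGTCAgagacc
Gng13, chr17:25716922-25717171, plus strand: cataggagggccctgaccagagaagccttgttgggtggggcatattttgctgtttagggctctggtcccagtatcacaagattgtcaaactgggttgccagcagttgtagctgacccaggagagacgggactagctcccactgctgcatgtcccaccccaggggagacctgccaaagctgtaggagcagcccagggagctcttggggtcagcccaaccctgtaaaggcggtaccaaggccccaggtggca
Rgs8, chr1:153652787-153653036, plus strand: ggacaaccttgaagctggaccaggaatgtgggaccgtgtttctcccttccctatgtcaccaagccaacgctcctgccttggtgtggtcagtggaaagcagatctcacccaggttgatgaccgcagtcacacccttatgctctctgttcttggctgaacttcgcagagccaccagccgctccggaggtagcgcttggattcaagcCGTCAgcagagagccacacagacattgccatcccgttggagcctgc

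The upstream sequence of Pcp2 held AGGTCA at position −12 from the start and TGACG on the opposite strand at position −162. That of Rgs8 held TGACG on the opposite strand at position −46, and that of Gng13 held none of the 5 motifs. No matches overlapped one another. Over the most upstream windows of 27025 genes, AGGTCA occurred in 13.8%, TGACG in 17.8%, TATAAA in 13.0%, TGAATGAA in 1.09% and TGAATGGA in 1.02%. Neither Capicua octamer was in the printed windows. The table also has windows of 300 bases at more downstream starts. Beyond the matches already given, the third window of Pcp2 held TGAATGGA at position −5, in the sequence ctcagggcaaaTGAATGGAttcttagtact, and TATAAA on the opposite strand at −114, its last window held AGGTCA at −26, and the third window of Rgs8 held AGGTCA at −136. The more downstream window of Gng13 held none. Of the 32851 windows at all starts, 1.21% held TGAATGGA, 13.6% TATAAA and 16.3% AGGTCA. These matches are letters in a window and were not tested for binding.

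The libraries held 55059831 to 69065648 read pairs, of which 20556802 to 32127508 fell on annotated genes in the reverse orientation. Atxn1, whose counts do not separate the expanded allele from the normal one, had means of 153 ± 8.28 and 172 ± 17.9 CPM (counts per 1e6 counts of a library; SD, n = 3 each) in the WT and SCA1 sedentary groups. The libraries of SCA1 sedentary mouse 16 and SCA1 exercise mouse 55 stood apart from the others in several measures. Multimapping reads were 6.38% and 6.33% of them, against 2.08% to 3.46% elsewhere. Their 8 brainstem markers summed to 49.9 and 50.9 CPM, against 0.598 to 8.54 CPM in the other mice, and their 10 granule cell markers to 3566 and 4449 CPM, against 5776 to 7042 CPM. Oligodendrocyte markers were highest in these mice as well, at 7417 and 5923 CPM against 2666 to 4489.5 CPM. Choroid plexus markers differed along other lines: the 7 genes summed to 20.0 to 423 CPM in WT sedentary mice, 27.5 to 1184 CPM in SCA1 sedentary mice, 540.3 to 1624 CPM in SCA1 exercise mice and 837 to 1944 CPM in WT exercise mice, so both exercise groups lay above the WT sedentary group. Their median log2FC was 1.80 in SCA1 sedentary and 2.72 in WT exercise against WT sedentary mice. Genes of chromosome Y were expressed in 3 of 3 WT sedentary, 2 of 3 WT exercise, 2 of 3 SCA1 sedentary and 1 of 3 SCA1 exercise mice. They summed to 0 to 0.404 CPM in WT exercise mouse 201, SCA1 sedentary mouse 194 and SCA1 exercise mice 55 and 122. In the other mice they summed to 207 to 264 CPM. The results below are therefore also given without mice 16 and 55 where that changes them, and the part of tissue makeup in them was not tested. Sex entered only through an alternative fit with chromosome Y expression as a covariate.

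All 4 genes were highly expressed for their length. Per kilobase of annotated exons, the level in WT sedentary mice was 109.9 ± 5.52 CPM per kilobase for Pcp2, 103 ± 9.52 for Rgs8, 74.9 ± 10.8 for Gng13 and 52.8 ± 9.12 for Ppp1r17 (SD, n = 3). Over all 12 mice, 97.9% to 99.3% of the tested genes had a lower mean level on this scale. Pcp2 and Rgs8 did not differ beyond their spread: with the longest transcript in place of all exons, Rgs8 stood at 132 ± 12.2 and Pcp2 at 125 ± 6.28 CPM per kilobase (SD, n = 3), the reverse order. The read counts behind these values ranged from 652 for Gng13 in one SCA1 sedentary mouse to 32524 for Rgs8 in one WT sedentary mouse, and counting error was therefore small beside the spread between mice.

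Gng13, the γ subunit, was lower in sedentary SCA1 than in sedentary WT mice. Its level was 87.9, 65.8 and 76.3 CPM in the 3 WT sedentary mice, and 31.7, 44.1 and 31.4 CPM in the 3 SCA1 sedentary mice. The highest SCA1 sedentary value, in mouse 194, lay below the lowest WT sedentary value. The group means were 76.6 ± 11.1 and 35.7 ± 7.23 CPM (SD, n = 3 each). The log2FC was −1.10 (standard error 0.20, 95% interval −1.53 to −0.68), a level 0.466 times that of WT sedentary mice, with an adjusted p of 0.0853 from edgeR's quasi-likelihood test. That did not pass the threshold of an adjusted p under 0.05 with an absolute log2FC over 0.5, which is what called means below.

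Pcp2, the GoLoco protein, varied most among the SCA1 sedentary mice. It had 207, 189 and 207 CPM in WT sedentary mice 116, 117 and 192, and 89.3, 151 and 105 CPM in SCA1 sedentary mice 16, 194 and 195. Mouse 194 lay well above the other SCA1 sedentary mice, yet below every WT sedentary mouse. The means were 201 ± 10.1 and 115 ± 32.2 CPM (SD, n = 3 each), and the log2FC was −0.80 (standard error 0.17, 95% interval −1.17 to −0.44, adjusted p = 0.145 by edgeR). Mouse 194 was also the highest SCA1 sedentary mouse for Gng13, and without it the log2FC of Pcp2 was −1.06 with an adjusted p of 0.0382 by edgeR. It was the SCA1 sedentary mouse that did not express chromosome Y genes. Without it, all the sedentary mice compared expressed them.

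Rgs8, the GTPase accelerator, had the most reads of the 4 genes. Its level was 1026, 1216 and 1203 CPM in WT sedentary mice and 645, 771 and 734 CPM in SCA1 sedentary mice. Here too every SCA1 sedentary mouse stood below every WT sedentary mouse. The means were 1149 ± 106 and 717 ± 65.0 CPM (SD, n = 3 each), with a log2FC of −0.68 (standard error 0.14, 95% interval −0.97 to −0.39, adjusted p = 0.124 by edgeR).

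Ppp1r17, the phosphatase inhibitor, came nearest to the threshold. It stood at 135, 133 and 97.5 CPM in WT sedentary mice and at 62.9, 70.8 and 74.9 CPM in SCA1 sedentary mice. WT sedentary mouse 192 was low among its group but above every SCA1 sedentary mouse. The means were 122 ± 21.0 and 69.5 ± 6.07 CPM (SD, n = 3 each), and the log2FC was −0.81 (standard error 0.13, 95% interval −1.09 to −0.53, adjusted p = 0.0532 by edgeR). Without mouse 192 the log2FC was −0.95 and the adjusted p 0.0265 by edgeR.

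**Figure D1:**
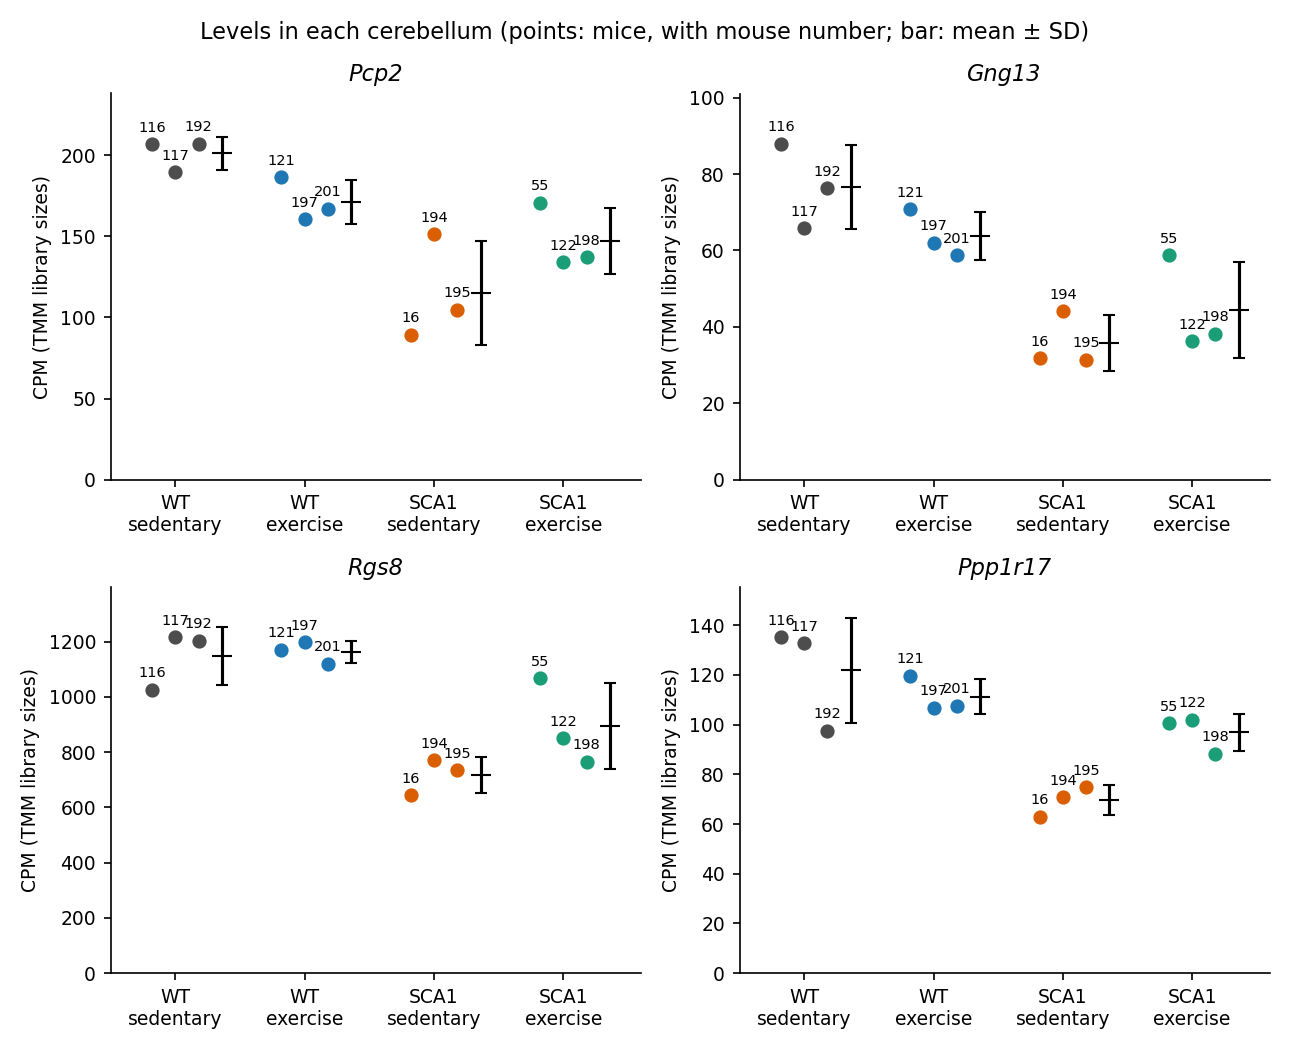
Level of each gene in each of the 12 mice, in CPM on a linear axis from 0, with 1 panel per gene, 1 color per group, the mouse number above each point, and the mean ± SD of 3 mice as a black bar. In every panel the 3 SCA1 sedentary mice lie below the 3 WT sedentary mice, while mouse 55 is the highest SCA1 exercise mouse for Pcp2, Gng13 and Rgs8.

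In this comparison 0 of the 4 genes were called by edgeR, where 0.0344% of the 20341 tested genes (7 genes) were called. All 4 had an unadjusted p under 0.05, as had 2055 genes in all, and they stood at rank 13 (Ppp1r17), 23 (Gng13), 46 (Rgs8) and 56 (Pcp2) by unadjusted p. Every SCA1 sedentary mouse lay below every WT sedentary mouse for 4 of the 4 genes, against 5.76% of the tested genes, and two-sided exact permutation of 3 mice against 3 gave p = 0.1 for each, the smallest it can give. The call depended on the test. DESeq2 on the same 12 libraries called all 4, with adjusted p from 5.60e-05 for Ppp1r17 to 0.00415 for Pcp2, and 201 genes in all. Without mice 16 and 55, edgeR also called all 4, and 205 genes in all. The log2FC was then −0.63 for Pcp2, −1.002 for Gng13, −0.59 for Rgs8 and −0.72 for Ppp1r17, with adjusted p between 0.00853 and 0.0312. The direction was negative in all 22 alternatives for each gene. As the groups do not overlap, the 12 that leave out 1 mouse could hardly have reversed it. In bulk tissue, fewer Purkinje cells and less RNA per cell cannot be told apart.

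**Figure D2:**
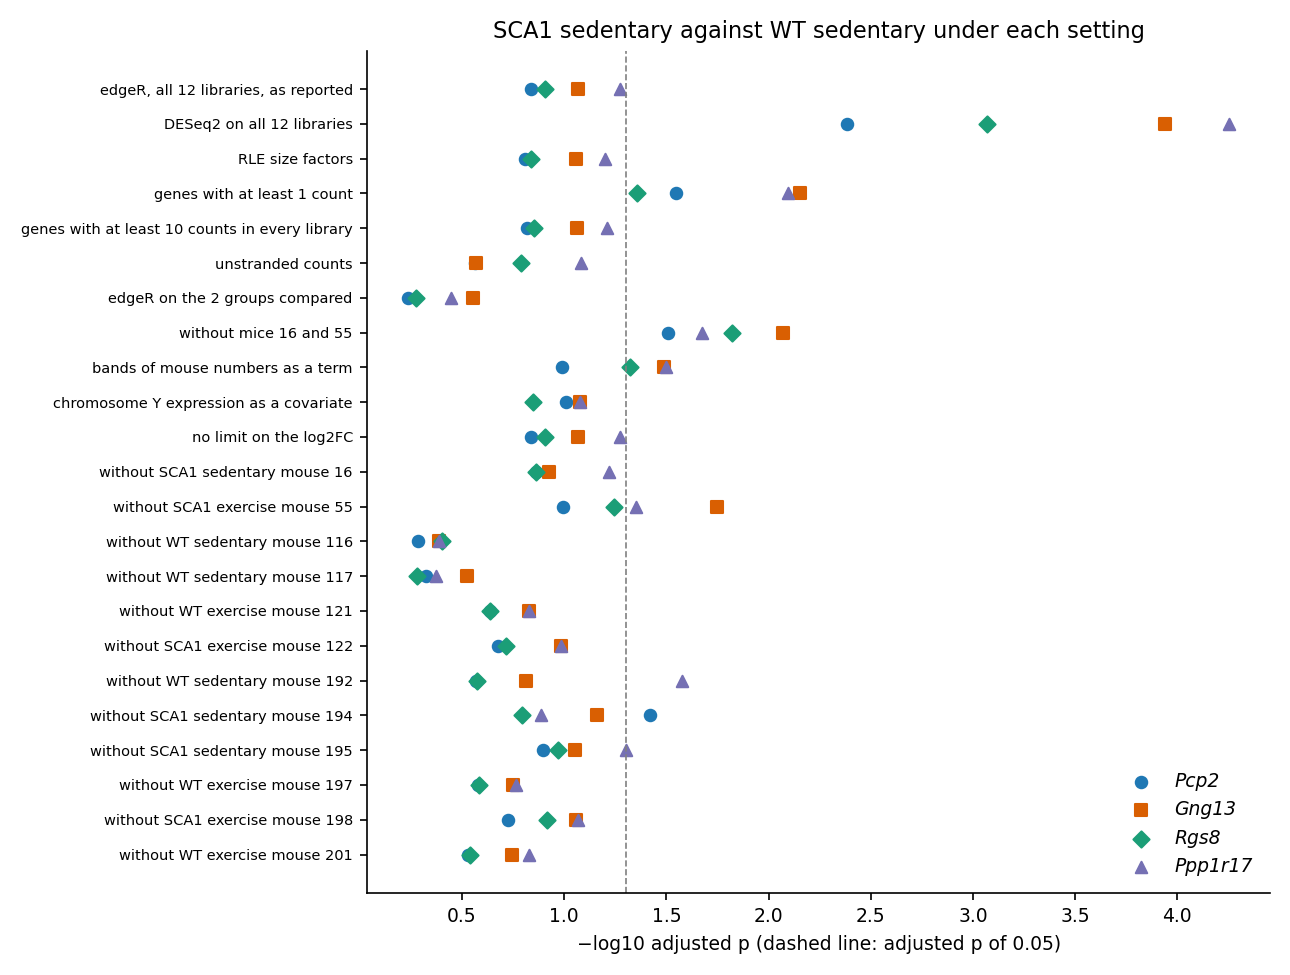
Adjusted p of each gene for SCA1 sedentary against WT sedentary mice under each setting, as −log10 on the horizontal axis, with 1 row per setting and 1 symbol per gene; points right of the dashed line have an adjusted p under 0.05. All 4 symbols lie right of the line with DESeq2, with genes of at least 1 count and without mice 16 and 55, and none does in the top row, the setting reported.

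In exercise mice the genotype difference was smaller for each gene, and the difference between the genotype effects was not called. The exercise values for Gng13 were 70.8, 62.0 and 58.7 CPM in WT and 58.8, 36.2 and 38.2 CPM in SCA1 mice, of which SCA1 mouse 55 just exceeded the lowest WT mouse. The log2FC was −0.52 for Gng13 (95% interval −0.94 to −0.10), −0.38 for Rgs8 (−0.67 to −0.08), −0.22 for Pcp2 (−0.58 to 0.14) and −0.20 for Ppp1r17 (−0.48 to 0.08). Each had an adjusted p of 0.960 by edgeR, so 0 of the 4 were called, as were 0% of all genes. Gng13 and Rgs8 had an unadjusted p under 0.05, as had 596 genes, and DESeq2 called 0 of the 4 and 3 genes in all. Leaving out 1 mouse gave log2FC of −0.77 to −0.43 for Gng13 and −0.52 to −0.29 for Rgs8. It gave −0.33 to −0.16 for Pcp2 and −0.26 to −0.14 for Ppp1r17. Without mice 16 and 55, edgeR called 0 of the 4 and 37 genes in all. For Rgs8 and Ppp1r17 every SCA1 exercise mouse lay below every WT exercise mouse, against 6.92% of genes. For Rgs8 those mice had 1068, 851 and 765 CPM, against 1171, 1198 and 1120.1 CPM in WT exercise mice, and for Ppp1r17 they had 100.5, 102 and 88.4 CPM, against 119.6, 107 and 108 CPM.

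SCA1 exercise mice were then set against SCA1 sedentary mice. Ppp1r17 stood at 96.9 ± 7.45 CPM with exercise and 69.5 ± 6.07 CPM without (SD, n = 3 each). It was the gene of the 4 whose groups did not overlap, every exercise mouse lying above every sedentary mouse, against 2.43% of genes. Its log2FC was 0.48 (95% interval 0.20 to 0.76, unadjusted p = 0.00262, adjusted p = 0.999 by edgeR), and it ranked 5 of 20341 by unadjusted p. The log2FC was 0.36 for Pcp2 (−0.01 to 0.72), 0.31 for Gng13 (−0.11 to 0.74) and 0.32 for Rgs8 (0.03 to 0.61). By edgeR 0 of the 4 were called, as were 0% of genes, while 441 genes had an unadjusted p under 0.05, Rgs8 and Ppp1r17 among them, and DESeq2 called 0 of the 4 and 1 gene in all.

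For Pcp2, Gng13 and Rgs8, much of that difference lay between mice 16 and 55. The mouse numbers fall into 3 bands, 16 and 55, 116 to 122, and 192 to 201. Between those mice alone, each the only one of its group in its band of mouse numbers, the log2 CPM difference was 0.93 for Pcp2, 0.89 for Gng13, 0.73 for Rgs8 and 0.67 for Ppp1r17. Between mouse 198 and mice 194 and 195, it was 0.12, 0.04, 0.02 and 0.28. Without mice 16 and 55 the fitted log2FC of Gng13 was −0.026. The remaining mice of Ppp1r17 stood at 88.4 and 102 CPM with exercise against 70.8 and 74.9 CPM without. Over the 22 alternatives the log2FC of Ppp1r17 stayed between 0.38 and 0.54. That of Pcp2 ran from 0.08 to 0.61, of Gng13 from −0.03 to 0.50 and of Rgs8 from 0.10 to 0.41. Mouse 55 carried the brainstem and granule cell marker levels given above, as did mouse 16 in the other group.

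In WT mice, exercise moved none of the genes past the threshold. Pcp2 had 186, 160 and 167 CPM with exercise, all below the WT sedentary mice, as in 11.1% of genes, with a log2FC of −0.23 (95% interval −0.59 to 0.13). Gng13 had a log2FC of −0.26 (−0.68 to 0.15) and Ppp1r17 of −0.13 (−0.41 to 0.15). Rgs8 was the most alike in the WT groups, at 1163 ± 39.3 CPM with exercise and 1149 ± 106 CPM without (SD, n = 3 each), with a log2FC of 0.02 (−0.28 to 0.31). The choroid plexus markers separated these groups, as given above, with 6 of the 7 higher with exercise at an unadjusted p under 0.05. By edgeR 0 of the 4 were called, as were 0% of genes, none of the 4 had an unadjusted p under 0.05, as 955 genes had, and DESeq2 called 0 of the 4 and 63 genes in all. Adjusted p was 0.958 for Pcp2, Gng13 and Ppp1r17 and 0.993 for Rgs8 by edgeR.

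The interaction of genotype and exercise, the exercise effect in SCA1 mice minus that in WT mice, was positive for each gene. It was 0.61 for Ppp1r17 (95% interval 0.22 to 1.00, unadjusted p = 0.00520), 0.59 for Pcp2 (0.08 to 1.10, unadjusted p = 0.0279), 0.58 for Gng13 (−0.02 to 1.17, unadjusted p = 0.0558) and 0.30 for Rgs8 (−0.11 to 0.72, unadjusted p = 0.140) by edgeR. Each adjusted p was 1.00, 0 of the 4 were called, as were 0% of genes, 769 genes had an unadjusted p under 0.05, and DESeq2 called 0 of the 4 and 2 genes in all. Without mice 16 and 55 the interaction was 0.51 for Ppp1r17, 0.30 for Pcp2, 0.23 for Gng13 and 0.076 for Rgs8, with adjusted p from 0.243 to 0.832 by edgeR. Without mouse 55 alone it was 0.33 for Gng13 and 0.16 for Rgs8.

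Set against WT sedentary mice, SCA1 exercise mice had log2FC of −0.79 for Gng13 (95% interval −1.21 to −0.37, adjusted p = 0.701 by edgeR), −0.45 for Pcp2 (−0.81 to −0.09), −0.36 for Rgs8 (−0.65 to −0.07) and −0.33 for Ppp1r17 (−0.61 to −0.05), the last 3 with an adjusted p of 1.00 by edgeR. By edgeR 0 of the 4 were called, as were 0% of genes. All 4 had an unadjusted p under 0.05, as had 856 genes, and DESeq2 called 0 of the 4 and 30 genes in all. For Pcp2 and Gng13 every SCA1 exercise mouse lay below every WT sedentary mouse, against 5.01% of genes. Without mice 16 and 55, edgeR called Gng13, with a log2FC of −1.03 and an adjusted p of 0.0116. This comparison and the preceding ones share groups, and their values for a gene are not independent.

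**Figure D3:**
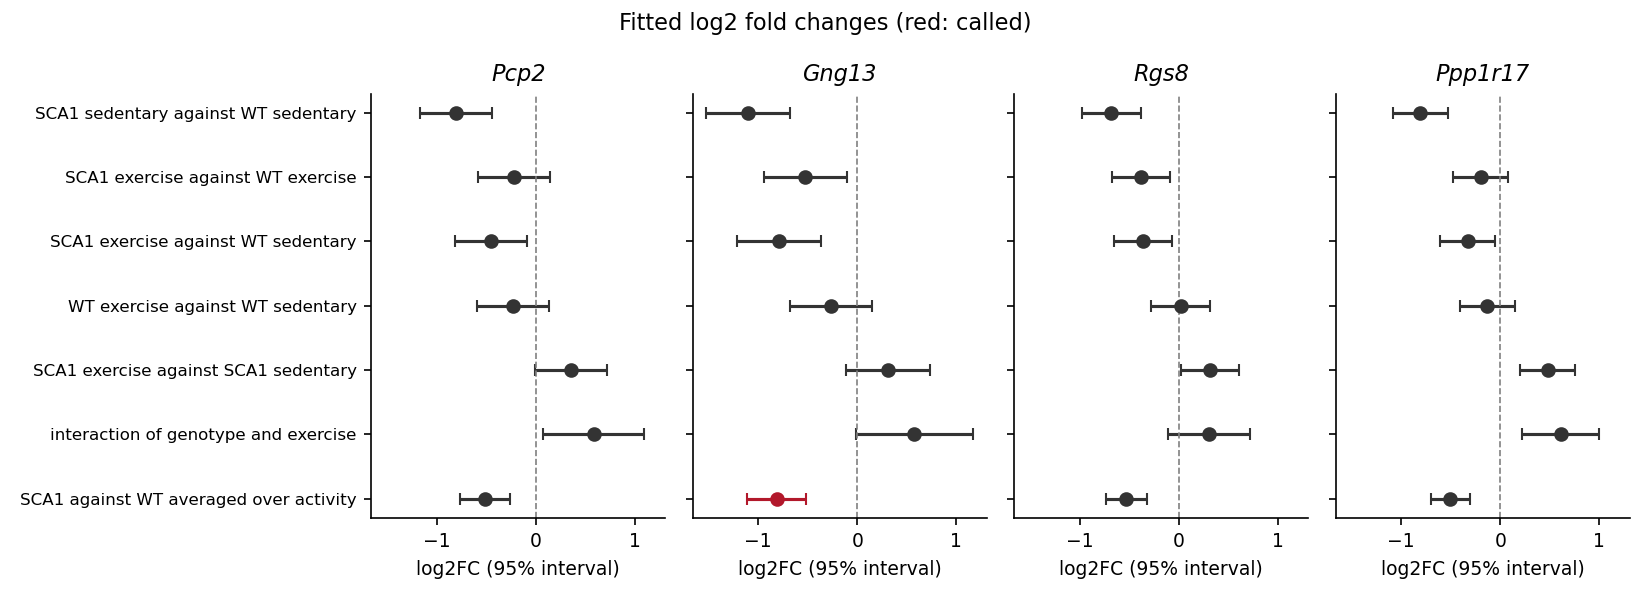
Fitted log2FC of each gene (points) with its 95% interval (bars) in the 7 comparisons, 1 panel per gene and the same horizontal axis in each. The SCA1 sedentary against WT sedentary intervals lie wholly below 0 in all 4 panels, those of WT exercise against WT sedentary cross 0, and the 1 red point is Gng13 for genotype averaged over activity.

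The order of the group means was the same for Pcp2, Gng13 and Ppp1r17: WT sedentary, WT exercise, SCA1 exercise, SCA1 sedentary. For Pcp2 the means in that order were 201 ± 10.1, 171 ± 13.5, 147 ± 20.2 and 115 ± 32.2 CPM (SD, n = 3 each), and for Gng13 76.6 ± 11.1, 63.8 ± 6.29, 44.4 ± 12.5 and 35.7 ± 7.23 CPM (SD, n = 3 each). For Ppp1r17 they were 122 ± 21.0, 111 ± 7.21, 96.9 ± 7.45 and 69.5 ± 6.07 CPM (SD, n = 3 each). Neighbors in that order overlapped for Gng13 throughout. For Pcp2 the WT groups did not overlap while the other neighbors did, and for Ppp1r17 the WT groups overlapped while the other neighbors did not. For Rgs8 the WT groups came first and overlapped, and SCA1 exercise mice at 894 ± 156 CPM overlapped SCA1 sedentary mice at 717 ± 65.0 CPM (SD, n = 3 each).

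Averaged over activity, SCA1 mice were lower than WT mice for all 4 genes, and Gng13 was called. Its averaged log2FC was −0.81 (standard error 0.14, 95% interval −1.11 to −0.51, adjusted p = 0.0494 by edgeR). The others were −0.53 for Rgs8 (standard error 0.10, adjusted p = 0.0625), −0.50 for Ppp1r17 (0.09, 0.0583) and −0.51 for Pcp2 (0.12, 0.146), all by edgeR. Thus 1 of the 4 was called, where 0.118% of genes (24) were, 20 of those 24 lower in SCA1 mice. Exact permutation of genotype within sedentary and within exercise mice, two-sided and not adjusted over the 4 genes, gave p = 0.005 for Rgs8 and Ppp1r17, the smallest that its 400 arrangements allow, 0.01 for Gng13 and 0.015 for Pcp2. As the genes were chosen with earlier results of these data known, these permutation p values only describe them. DESeq2 called all 4, with adjusted p from 3.11e-05 for Gng13 to 0.0139 for Pcp2, and 179 genes in all. The edgeR call of Gng13 was near the threshold: it was lost in 8 of 12 fits that each left out 1 mouse, with adjusted p from 0.0789 without WT sedentary mouse 192 to 0.149 without WT exercise mouse 201 (without WT sedentary mice 116 and 117, WT exercise mice 121 and 197, and SCA1 exercise mice 122 and 198, from 0.110 to 0.141), and with unstranded counts, which lose most Gng13 reads (log2FC −0.69, adjusted p = 0.269 by edgeR). It was also lost with chromosome Y expression as a covariate, at a log2FC of −0.91 and an adjusted p of 0.0605 by edgeR, and the groups are unbalanced in such expression, as given above.

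The 4 genes can be set beside 24 other Purkinje cell markers. Of these, 21 had a negative log2FC in sedentary SCA1 mice and 3 a positive one, 2 were called (Pcp4 at −1.17, which binds calmodulin, and Calb1 at −0.82, the calcium buffer calbindin), both lower, and 16 were lower at an unadjusted p under 0.05. DESeq2 called 6, all lower. Their median log2FC was −0.45, against −0.81 for the 4 genes and 0.02 for all genes tested, and 1 marker of the 24, Pcp4, was below Gng13. The lists were assembled with earlier results of these data known, so the medians describe them and are not evidence of a direction. Among the markers with a positive log2FC, Nefh (neurofilament heavy chain, also in large brainstem neurons) stood at 0.64 with an unadjusted p of 0.171.

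Relative to the mean log2 CPM of those 24 markers in the same mouse, the 4 genes kept different distances. Gng13 lay at −1.45 ± 0.28 log2 units from the markers in WT sedentary and at −2.13 ± 0.21 in SCA1 sedentary mice (SD, n = 3 each), with no overlap between the groups. On this scale 0.447% of the tested genes lay wholly lower in SCA1 sedentary mice and 40.1% wholly higher, the reference being a list with a median log2FC of −0.45. Rgs8 lay at 2.46 ± 0.08 and 2.21 ± 0.03 log2 units (SD, n = 3 each), also without overlap. Pcp2 lay at −0.05 ± 0.14 and −0.46 ± 0.30, and Ppp1r17 at −0.79 ± 0.28 and −1.15 ± 0.08 (SD, n = 3 each). For Pcp2 mouse 194 overlapped WT sedentary mice, and for Ppp1r17 WT sedentary mouse 192 overlapped SCA1 sedentary mice. In exercise mice the distances of Pcp2 and Ppp1r17 were near each other in both genotypes. Pcp2 lay at −0.26 ± 0.11 in WT and −0.29 ± 0.11 in SCA1 exercise mice, and Ppp1r17 at −0.89 ± 0.08 and −0.89 ± 0.09 (SD, n = 3 each). Gng13 lay at −1.69 ± 0.12 and −2.05 ± 0.27, and Rgs8 at 2.501 ± 0.03 and 2.31 ± 0.10 (SD, n = 3 each). These distances were not tested.

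The other genes of the same pathways lay on both sides of 0 in sedentary SCA1 against sedentary WT mice, though not evenly. Positive and negative log2FC numbered 17 and 8 for G protein subunits, and 15 and 6 for RGS and GoLoco proteins and partners. They numbered 8 and 18 for the cGMP and phosphatase list, and 7 and 12 for receptors and effectors. Of 25 tested G protein subunits, 0 were called by edgeR or DESeq2, 1 was higher and 1 lower at an unadjusted p under 0.05, and the median log2FC was 0.09. Gnai1, an α subunit of the Gi class, stood at −0.31 (unadjusted p = 0.0162), and Gng4, another γ subunit, at 1.32 (unadjusted p = 0.0205). Gng4 had 4.42, 4.87 and 5.36 CPM in WT sedentary mice and 23.6, 7.26 and 5.58 CPM in SCA1 sedentary mice 16, 194 and 195, so the value of mouse 16 stood far above the others. Gnao1, the α subunit of Go that Rgs8 and Pcp2 act on and chosen for that relation, stood at 567 ± 19.2 CPM in WT sedentary and 534 ± 27.1 CPM in SCA1 sedentary mice (SD, n = 3 each), with a log2FC of −0.09 (unadjusted p = 0.427). The most abundant β subunit on the list, Gnb1, stood at 379 ± 19.1 and 380.0 ± 89.9 CPM (SD, n = 3 each). The γ subunits Gng2, Gng3 and Gng7, chosen as paralogs of Gng13, had log2FC of 0.09, 0.17 and 0.27.

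Of 21 tested RGS and GoLoco proteins and partners that bind them or α subunits, other than Rgs8 and Pcp2, 0 were called by edgeR and 1 by DESeq2 (Rgs9, higher), 4 were higher and 2 lower at an unadjusted p under 0.05, and the median log2FC was 0.22. The higher ones with the lowest p were Rgs9 (0.94), Rgs11 (1.33) and Rgs17 (0.59), and the lower ones Rgs7bp (−0.33), Rgs7 (−0.32) and Ric8b (−0.15, unadjusted p = 0.117), a chaperone and exchange factor of α subunits. Mouse 16 was the highest SCA1 sedentary mouse for each of the higher ones. Rgs17 had 104, 36.4 and 64.3 CPM in mice 16, 194 and 195, against 44.3 to 47.4 CPM in WT sedentary mice, and Rgs11 had 13.2, 7.60 and 3.56 CPM, against 2.22 to 4.64 CPM. For Rgs9 the 3 SCA1 sedentary mice, at 14.3, 10.7 and 10.1 CPM, all lay above the WT sedentary mice, at 4.44 to 8.41 CPM. The part of mouse 16 in these values was not tested. Rgs7bp anchors the R7 class, to which Rgs7, Rgs9 and Rgs11 belong, at membranes, so members of that class lay on both sides. The summed CPM of the list was 1155 to 1177 in WT sedentary and 1128 to 1216 in SCA1 sedentary mice, and the groups overlapped.

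For the pathway of Ppp1r17, 26 genes of cGMP synthesis, breakdown and signaling and of phosphatases 1 and 2A were tested. By edgeR 0 were called, 1 was called by DESeq2 (Pde5a, lower), 4 were lower and 0 higher at an unadjusted p under 0.05, and the median log2FC was −0.08. Pde5a, a phosphodiesterase that breaks down cGMP, stood at 124 CPM in WT sedentary and 77.6 CPM in SCA1 sedentary mice, with a log2FC of −0.68 (adjusted p = 0.124 by edgeR). Prkg1, the kinase that phosphorylates G-substrate, stood at −0.40 (unadjusted p = 0.00461) and Ppp1cc, a catalytic subunit of phosphatase 1, at −0.28 (0.00557). The higher ones with the lowest p, Pde2a (0.62), Ppp2r2b (0.30) and Prkg2 (1.09), had unadjusted p from 0.139 to 0.229. Nos1, the neuronal nitric oxide synthase upstream of cGMP, stood at 264 CPM in WT sedentary and 263 CPM in SCA1 sedentary mice. Pde5a, Prkg1 and Ppp1cc shared the sign of Ppp1r17 without passing the threshold by edgeR. That sign was the commoner one on the list, with 18 of the 26 genes negative and 8 positive.

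Receptors and effectors that work through G proteins in Purkinje cells were a mixed list of 19. By edgeR and DESeq2 0 were called, 4 were lower and 0 higher at an unadjusted p under 0.05, and the median log2FC was −0.16. Plcb3, a phospholipase C, stood at −0.70 (unadjusted p = 0.00560), Cnr1, the cannabinoid receptor, at −0.47 (0.00840) and Gabbr2, a GABA B receptor subunit, at −0.26 (0.0189). The higher ones with the lowest p were Htr1a (2.77), Chrm2 (1.01) and Adcy5 (0.50), with unadjusted p from 0.101 to 0.126. Each varied widely among SCA1 sedentary mice. Htr1a had 0.562 ± 0.701 CPM in WT sedentary and 3.81 ± 5.94 CPM in SCA1 sedentary mice (SD, n = 3 each). In the same order, Chrm2 had 7.23 ± 2.60 and 14.5 ± 15.0 CPM, and Adcy5 75.9 ± 13.9 and 107 ± 52.5 CPM (SD, n = 3 each). Of the granule cell markers, 9 of 10 had a negative log2FC, 7 of them at an unadjusted p under 0.05, as had 926 of the 20341 tested genes. Their median was −0.45, the same to 2 decimals as that of the Purkinje markers. The granule cell markers summed to 3566 CPM in SCA1 sedentary mouse 16 and to 5776 and 6352 CPM in mice 194 and 195. In WT sedentary mice they summed to 6706 to 7042 CPM.

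**Figure D4:**
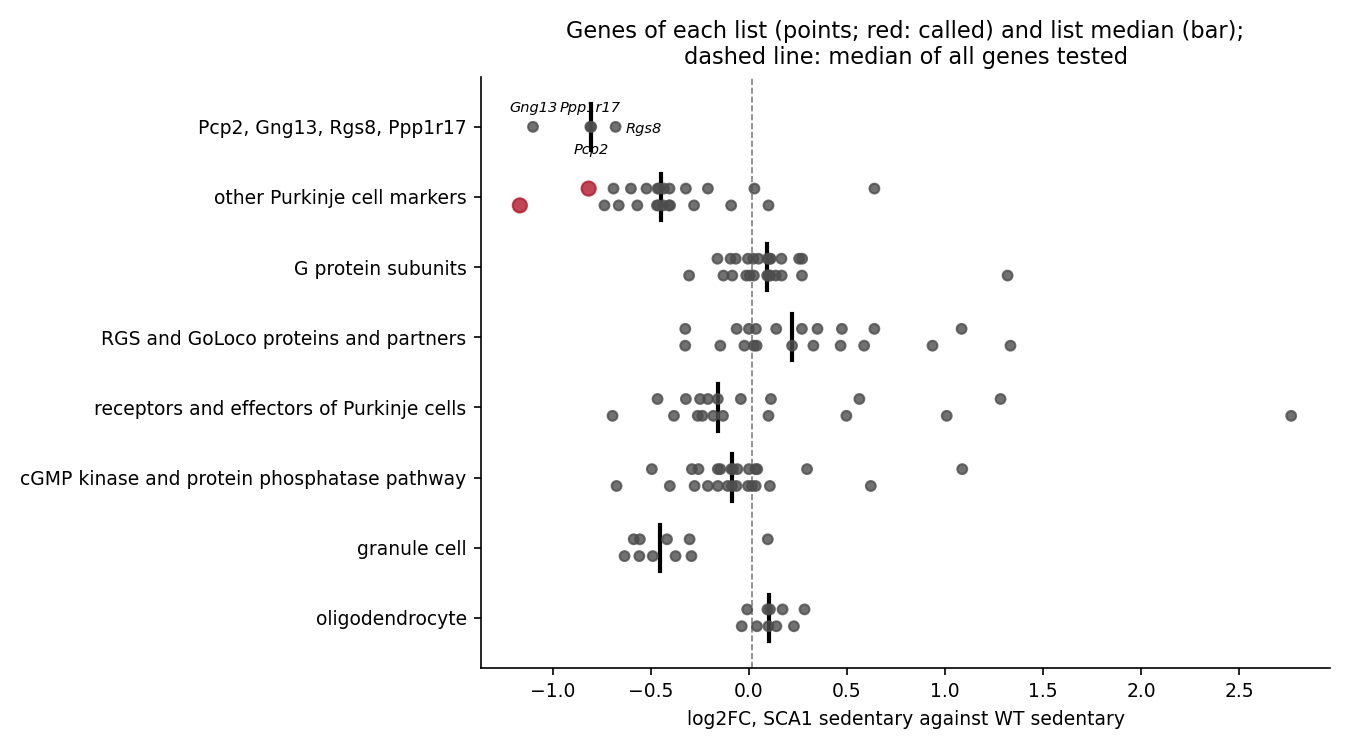
Fitted log2FC for SCA1 sedentary against WT sedentary mice (horizontal axis) of each tested gene in 8 lists (rows), with called genes in red, the list median as a black bar and the median of all genes as a dashed line. The 4 genes lie between −1.10 and −0.68, the called points are Pcp4 and Calb1, and the subunit, RGS and phosphatase lists straddle 0.

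Over the 12 libraries, the 4 genes were most like different genes. Among 11142 genes with a mean log2 CPM of at least 3, Pcp2 was most like Shisa8 (Pearson r = 0.97), Itpka (0.96), Gng13 (0.94), Inpp5a (0.93) and Homer3 (0.93), and Gng13 was most like Hpcal1 (0.97), Itpka (0.97), Homer3 (0.95), Shisa8 (0.95) and Slc25a29 (0.95). The lists of Pcp2 and Gng13 thus had Shisa8, Itpka and Homer3 in both. Rgs8 was most like Doc2b (0.98), Trabd2b (0.97), Washc2 (0.96), Gpr63 (0.96) and Sbk1 (0.96), and Ppp1r17 was most like Zfp599 (0.99), Car8 (0.98), Calb1 (0.98), Ggact (0.96) and Glce (0.96). All of these share the same libraries and the same group differences. With each group's mean removed, the highest r was with Shisa8 for Pcp2 (0.96), Ephx1 for Gng13 (0.97), Trabd2b for Rgs8 (0.96) and Zhx2 for Ppp1r17 (0.98). Spearman's rho for these over the levels was 0.98, 0.89, 0.85 and 0.44, the last being that of Zhx2.

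Between the 4 genes themselves, the deviations of mice from their group means were compared over 6 pairs by exact permutation within groups (1296 arrangements, adjusted over the 6 pairs). Pcp2 and Gng13 had the closest deviations, with r = 0.83 (exact p = 0.0108, adjusted 0.0648) and rho = 0.83 (exact p = 0.0100, adjusted 0.0602), and r = 0.70 without the 2 mice farthest from the median. Mouse 194 was above its group mean by 0.43 and 0.32 log2 units for these genes, and mouse 55 by 0.22 and 0.44. Neither mouse expressed chromosome Y genes. The same held for mouse 122, with deviations of −0.13 and −0.26, and for mouse 201, with −0.03 and −0.12. Pcp2 and Rgs8 had r = 0.58 and rho = 0.59, and Gng13 and Rgs8 r = 0.53 and rho = 0.42, with adjusted exact p from 0.331 to 0.693, and r was 0.31 and −0.03 without the 2 farthest mice, so these values rest on those mice. Ppp1r17 had r of 0.15 to 0.22 and rho of −0.01 to 0.13 with the other genes (adjusted exact p from 0.648 to 0.992).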

How the data were processed

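Bulk RNA sequencing of the cerebellum of 12 mice was analyzed from the deposited gene counts. Per the study's methods and processing notes, ribosomal RNA was depleted, adapter-rich reads were trimmed with fastp 0.24.0, and STAR 2.7.10a aligned them to GRCm39. The authors deposited the raw gene counts of STAR, for both strands together and for each alone, without normalizing them. Reverse-strand counts were used here. In R 4.3.3, edgeR 4.0.16 (filterByExpr, TMM, quasi-likelihood test) was fitted to all 12 libraries with 4 group means, and p values were adjusted over 20341 genes by Benjamini-Hochberg. Log2 CPM used a prior count of 2. Genes were matched to GENCODE M39 by identifier (56323 of 56941). Single genes were also tested by exact permutation. DESeq2 1.42.0 and 21 other settings were alternatives. The 4 genes and the gene lists were chosen with earlier results of these data known. Named from each list were up to 3 higher and 3 lower genes with the lowest unadjusted p between sedentary groups, plus Atxn1, genes most like each of the 4, and relatives named as such. The text does not name every gene that this rule allows, and 1 that it names is not reported here. Nothing shows that mice came from separate litters, or sedentary mice from separate cages. The edgeR p values set a group difference against a spread between mice that was estimated over all 4 groups with information shared across genes. All p values treat the mice as independent. Splicing, behavior and the authors' own comparisons were not used here.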

Additional observations from a re-analysis of the deposited data

How the results depend on the processing

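Each of the 4 genes was refitted in 7 comparisons under 22 alternatives (21 for those of 4 groups). The direction held in all of them but for Rgs8 in WT exercise against WT sedentary mice and Gng13 in SCA1 exercise against SCA1 sedentary mice. The alternative without a limit on the log2FC kept the same fit, so its direction could not differ. The cause of the changes below was not tested.

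For SCA1 sedentary against WT sedentary mice, 7 genes were called, and 201 with DESeq2, 76 with genes of at least 1 count, 0 with edgeR on the 2 groups alone, 205 without mice 16 and 55, 55 with bands of mouse numbers as a term, and 2 with chromosome Y expression as a covariate. Leaving out 1 mouse gave 0 to 42. The log2FC of Pcp2 was −0.80 with DESeq2, −0.81 with genes of at least 1 count and −0.63 without mice 16 and 55, all called. That of Gng13 was −1.09, −1.11 and −1.002 under these, and −1.17 with the bands, all called. That of Rgs8 was −0.68, −0.69, −0.59 and −0.74, and that of Ppp1r17 −0.81, −0.82, −0.72 and −0.64, under the same 4 settings, all called. Leaving out 1 mouse gave −1.06 to −0.65 for Pcp2 (called without SCA1 sedentary mouse 194), −1.29 to −0.99 for Gng13 (called without SCA1 exercise mouse 55), −0.76 to −0.61 for Rgs8 (never called) and −0.95 to −0.73 for Ppp1r17 (called without SCA1 exercise mouse 55 or WT sedentary mouse 192).

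For SCA1 exercise against WT exercise mice, 0 genes were called, and 3 with DESeq2, 37 without mice 16 and 55 and 3 with the bands, with 0 to 5 when 1 mouse was left out. For SCA1 exercise against WT sedentary mice, 0 were called, and 30 with DESeq2, 17 with genes of at least 1 count, 46 without mice 16 and 55 and 5 with the bands, with 0 to 3 when 1 mouse was left out. Gng13 was called there without mice 16 and 55, at −1.03. For WT exercise against WT sedentary mice, 0 were called, and 63, 45, 150 with the 2 groups alone, 64 and 33 under DESeq2, genes of at least 1 count, that setting, no mice 16 and 55 and the bands, with 0 to 19 when 1 mouse was left out. Rgs8 changed sign there, at −0.0013 with unstranded counts and −0.021 with the chromosome Y covariate, and spanned −0.057 to 0.075 when 1 mouse was left out. DESeq2 called 1 gene for SCA1 exercise against SCA1 sedentary mice and 2 for the interaction, where leaving out 1 mouse gave 0 to 1. Gng13 had −0.026 for SCA1 exercise against SCA1 sedentary mice without mice 16 and 55.

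For SCA1 against WT averaged over activity, 24 genes were called, and 179 with DESeq2, 125 with genes of at least 1 count, 13 with unstranded counts, 142 without mice 16 and 55 and 84 with the bands, with 0 to 63 when 1 mouse was left out. Pcp2 was called with DESeq2 (−0.51) and genes of at least 1 count (−0.51), and Ppp1r17 with DESeq2 (−0.50) and genes of at least 1 count (−0.51). Rgs8 was called with DESeq2 (−0.53), genes of at least 1 count (−0.53), without mice 16 and 55 (−0.55) and with the bands (−0.57). Gng13 lost its call with unstranded counts (−0.69) and the chromosome Y covariate (−0.91). Leaving out 1 mouse gave −0.64 to −0.43 for Pcp2 (called without SCA1 sedentary mouse 194), −0.93 to −0.76 for Gng13 (not called in 8 of 12), −0.60 to −0.48 for Rgs8 (called without SCA1 exercise mouse 55) and −0.58 to −0.47 for Ppp1r17 (called without WT sedentary mouse 192).

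With 3 mice a group, tissue makeup, sex and single mice weigh on each value, and a p that misses the threshold does not show that groups were alike. Depth was not limiting for the 4 genes, each having at least 652 counts per library.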
